A study of Homo sapiens with 10 samples.

Results

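The serine, glycine and one-carbon enzymes described here are 8 genes, PHGDH, PSAT1, PSPH, SHMT1, SHMT2, MTHFD1, MTHFD2 and MTHFD1L, measured in PC-3 cells, a human prostate cancer line that grows without androgen. They were found by the gene name that the scanner files give to each spot, and they are 8 of the 28090 genes named on the array, carried by 16 of its 41000 probes. Total RNA was hybridized in a single colour to 10 oligonucleotide arrays, 2 for each of 5 groups of cultures. They comprised cells taken at 0 h without treatment, and cells kept for 24 h with the solvent DMSO, with 60 µM luteolin, with 60 µM gefitinib or with 60 µM of each. Luteolin is a plant flavone and gefitinib an inhibitor of the EGF receptor kinase. PC-3 is a single established line, both drugs were added in DMSO, and the labels call the 2 arrays of a group biological replicates. Each p-value below rests on the spread between these pairs.

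The names of the scanner files disagree with the sample labels on which drug the 6 drug-treated arrays received. The pair labelled luteolin comes from files named for gefitinib, the pair labelled gefitinib from files named for both drugs, and the pair labelled luteolin plus gefitinib from files named for luteolin. Groups follow the labels here, and "labelled" stands before each drug name for that reason. The values of a pair do not depend on the name it is given, but the drug to which a change belongs does. The disagreement does not touch the 0 h and DMSO arrays.

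The 75th percentile of the processed signal ranged from 540 to 1402 between arrays, and the share of probes well above background from 63.4% to 70.4%. The pair labelled gefitinib (mean 75th percentile 640) and the pair labelled luteolin plus gefitinib (702) were the dimmest, and their median SD between replicate arrays was the highest (0.18 and 0.26 on the log2 scale, against 0.09 to 0.14 in the other groups). The part of this difference in brightness in the results was not tested. Of the marker genes examined, 5 of 5 of the epithelial list were well above background on all 10 arrays, as were 3 of 5 androgen-responsive prostate genes, 2 of 4 leukocyte genes (CD3E and CD14), 1 of 3 endothelial genes and 0 of 4 fibroblast genes. Of the fibroblast genes COL1A1 and COL3A1 were well above background on 9 arrays, LUM on 8 and DCN on 0, and the leukocyte gene PTPRC was so on 0.

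These enzymes make serine and glycine and pass their carbon to folate. PHGDH, PSAT1 and PSPH convert the glycolytic intermediate 3-phosphoglycerate into serine. Serine hydroxymethyltransferase then splits serine into glycine and a carbon unit bound to tetrahydrofolate, with SHMT2 in mitochondria and SHMT1 in the cytosol. In mitochondria MTHFD2 and MTHFD1L oxidize that unit and release it as formate, and in the cytosol MTHFD1 takes formate up again for the synthesis of purines and thymidylate. The transcription factor ATF4, which is made when amino acids are short or unfolded protein accumulates, is known to act on several genes of the serine and mitochondrial branches.

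Promoter windows from RefSeq (GRCh38.p14, 250 bases before to 50 after the start site) were found for 6 of the 8 genes. The windows of PHGDH, PSAT1, MTHFD2, MTHFD1 and MTHFD1L are printed 5′ to 3′ because the first 3 belong to genes of the pathway that rose together on the arrays labelled luteolin, MTHFD1 fell on them, and MTHFD1L did neither. Capitals mark matches, on either strand, to TGATGNAA, a form of the composite C/EBP and ATF element, to CACGTG, the E-box read by MYC and its relatives, or to TGACGTCA, the cyclic AMP response element.
PHGDH (chr1:119711684-119711983, plus strand): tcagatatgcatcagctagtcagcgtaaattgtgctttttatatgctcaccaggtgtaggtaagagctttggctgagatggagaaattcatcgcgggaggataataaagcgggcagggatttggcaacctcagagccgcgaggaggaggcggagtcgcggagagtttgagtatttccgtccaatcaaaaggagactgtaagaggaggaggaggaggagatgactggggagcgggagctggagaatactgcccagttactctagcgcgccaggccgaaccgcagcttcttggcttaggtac
PSAT1 (chr9:78296875-78297174, plus strand): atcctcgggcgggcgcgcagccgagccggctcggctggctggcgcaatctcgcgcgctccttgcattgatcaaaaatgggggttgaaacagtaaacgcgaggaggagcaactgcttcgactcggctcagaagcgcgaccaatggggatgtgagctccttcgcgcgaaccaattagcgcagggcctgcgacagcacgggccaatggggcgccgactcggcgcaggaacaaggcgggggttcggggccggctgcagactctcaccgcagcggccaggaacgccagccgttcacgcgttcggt
MTHFD2 (chr2:74198365-74198664, plus strand): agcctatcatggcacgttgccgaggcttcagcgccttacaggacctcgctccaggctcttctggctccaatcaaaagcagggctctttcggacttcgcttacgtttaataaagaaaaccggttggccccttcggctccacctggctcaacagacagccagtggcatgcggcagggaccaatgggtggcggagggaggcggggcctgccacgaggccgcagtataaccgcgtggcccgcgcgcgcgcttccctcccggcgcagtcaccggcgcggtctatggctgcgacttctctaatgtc
MTHFD1 (chr14:64388103-64388402, plus strand): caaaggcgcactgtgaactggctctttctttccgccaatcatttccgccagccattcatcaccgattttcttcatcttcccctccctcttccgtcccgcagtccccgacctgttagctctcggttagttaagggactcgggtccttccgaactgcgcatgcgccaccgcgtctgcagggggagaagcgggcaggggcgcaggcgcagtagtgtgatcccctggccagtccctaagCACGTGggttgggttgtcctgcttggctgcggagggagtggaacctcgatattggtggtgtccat
MTHFD1L (chr6:150866236-150866535, plus strand): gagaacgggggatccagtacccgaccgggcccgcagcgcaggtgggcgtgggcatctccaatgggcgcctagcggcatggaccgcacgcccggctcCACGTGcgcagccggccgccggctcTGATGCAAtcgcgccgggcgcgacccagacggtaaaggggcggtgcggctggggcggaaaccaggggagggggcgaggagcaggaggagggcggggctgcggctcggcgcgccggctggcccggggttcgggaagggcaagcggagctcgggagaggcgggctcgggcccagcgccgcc
MTHFD1L has 4 windows in the table, of which the first listed is printed. It held TGATGCAA with its first base at -129 from the start site and CACGTG at -154. The windows of 2 nearby start sites hold the same stretch, with TGATGCAA at -90 and 24, and the window at chr6:151006758-151007057 held no match. The MTHFD1 window held CACGTG at -15. No match stood in those of PHGDH, PSAT1, MTHFD2 or SHMT1. Over all 35116 windows of the table, 3.62% held TGATGNAA, 7.26% CACGTG and 1.85% TGACGTCA. The 3 motifs do not overlap in these windows, a match is only a run of letters, and its absence says nothing of sites outside the window.

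Levels below are log2 of the processed signal minus log2 of that array's 75th percentile, so a difference of 1 is a factor of 2. Since probes differ in how brightly they hybridize, levels were compared between arrays and never between genes. The representative probe of each of the 8 genes, the one with the highest mean, was well above background on 10 of 10 arrays and saturated on 0. A gene was called changed when the adjusted p of limma's moderated test was under 0.05 and the log2 change was at least 1 in size.

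PHGDH, the enzyme that commits 3-phosphoglycerate to serine synthesis (probe at chr1:120087052-120087111 on hg18, plus strand), gave levels of 1.92 and 1.98 at 0 h and of 2.08 and 1.99 with DMSO. It stood at 3.70 and 3.64 with the luteolin label, with the gefitinib label at 3.02 and 2.64, and with the label of both drugs at 2.43 and 2.65. All 6 drug-treated arrays were thus above all 4 control arrays, with the pair labelled luteolin on top and an overlap between the other drug-treated pairs. Against DMSO it rose by 1.63 ± 0.17 (SE) with the luteolin label, or 3.1-fold (adjusted p = 0.00093 from limma). That was the largest change of a member against DMSO, and within the 2 slides that held both groups it was 1.62 and 1.65.

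PSAT1, the aminotransferase of the next step (chr9:80134598-80134657 on hg18, plus strand), was measured at 2.52 and 2.55 at 0 h and at 2.36 and 2.48 with DMSO. The drug-treated arrays gave 3.55 and 3.81 with the luteolin label, 3.22 and 3.18 with the gefitinib label, and 2.78 and 3.16 with the label of both drugs. The drug-treated groups had the order seen for PHGDH, and the pair labelled gefitinib did not differ from that labelled luteolin plus gefitinib beyond the spread (adjusted p = 0.319). The rise over DMSO with the luteolin label was 1.26 ± 0.18 (2.39-fold, adjusted p = 0.0023). Inside the 2 slides it was 1.19 and 1.33.

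PSPH, the phosphatase that completes serine synthesis (chr7:56046280-56046339 on hg18, minus strand), moved least of the 3. Its levels were 3.26 and 3.35 at 0 h, 3.28 and 3.26 with DMSO, 3.70 and 3.66 with the luteolin label, 3.68 and 3.64 with the gefitinib label, and 3.07 and 3.09 with the label of both. The pairs labelled with a single drug overlapped each other and lay above all control arrays, whereas the pair labelled luteolin plus gefitinib lay below them. With the luteolin label the difference from DMSO was 0.41 ± 0.14 (adjusted p = 0.0603). The human genome holds a near-identical, transcribed copy of part of PSPH, so its probes may not tell the gene from the copy.

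SHMT2, the mitochondrial serine hydroxymethyltransferase (chr12:55914612-55914671 on hg18, plus strand), gave 3.45 and 3.45 at 0 h and 3.28 and 3.27 with DMSO. Higher levels were found on the drug-treated arrays, at 4.37 and 4.55 with the luteolin label, 4.22 and 3.97 with the gefitinib label, and 3.57 and 3.88 with the label of both. Every drug-treated array was above every control array, and no pair of drug-treated arrays overlapped another. The rise over DMSO with the luteolin label was 1.18 ± 0.17 (2.27-fold, adjusted p = 0.00252), and the within-slide values were 1.08 and 1.28.

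MTHFD2, the mitochondrial dehydrogenase and cyclohydrolase (chr2:74295493-74295552 on hg18, plus strand), was at 2.52 and 2.33 at 0 h and at 2.13 and 2.08 with DMSO. The arrays labelled luteolin gave 3.08 and 3.60, those labelled gefitinib 3.05 and 3.01, and those labelled luteolin plus gefitinib 2.28 and 2.23. Its level was high with either single-drug label, while the pair labelled with both drugs lay between DMSO and 0 h. With the luteolin label it rose over DMSO by 1.24 ± 0.19 (2.36-fold, adjusted p = 0.00336). It rested in part on replicate 2 of that pair, without which it was 0.98 (adjusted p = 0.0257) and no longer called. Within the slides it was 0.95 and 1.52.

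MTHFD1L, the mitochondrial formyltetrahydrofolate synthetase that releases formate (chr6:151455333-151455392 on hg18, plus strand), had levels of -0.48 and -0.70 at 0 h, -0.73 and -0.99 with DMSO, -0.87 and -0.71 with the luteolin label, -0.13 and -0.24 with the gefitinib label, and -0.75 and -0.97 with the label of both. Only the pair labelled gefitinib stood above all other arrays. The difference from DMSO with the luteolin label was 0.07, with a 95% interval from -0.33 to 0.47, so a rise of the size seen for SHMT2 and MTHFD2 lay outside that interval.

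The cytosolic members went the other way with the luteolin label. SHMT1, the cytosolic serine hydroxymethyltransferase (chr17:18172251-18172310 on hg18, minus strand), gave -0.34 and -0.77 at 0 h, -0.69 and -0.64 with DMSO, and -1.64 and -1.91 with the luteolin label. It was at -0.21 and -0.68 with the gefitinib label and at -1.39 and -1.76 with the label of both drugs. The pairs labelled luteolin and luteolin plus gefitinib overlapped and lay below all other arrays. Against DMSO the change was -1.11 ± 0.24 with the luteolin label (2.16-fold lower, adjusted p = 0.0114), and -0.95 and -1.27 within the slides. This call was lost without luteolin replicate 2 (-0.97, adjusted p = 0.0899), without DMSO replicate 1 (-1.13, adjusted p = 0.0663) and without DMSO replicate 2 (-1.08, adjusted p = 0.0743).

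MTHFD1, the cytosolic trifunctional folate enzyme (chr14:63996249-63996308 on hg18, plus strand), had levels of 5.06 and 4.95 at 0 h and of 4.72 and 4.69 with DMSO. It fell to 3.66 and 3.25 on the arrays labelled luteolin, and was at 5.83 and 5.50 with the gefitinib label and at 4.45 and 4.65 with the label of both. The 5 pairs did not overlap, and they ran from the luteolin label at the bottom through both drugs, DMSO and 0 h to the gefitinib label at the top, although the neighbours both drugs and DMSO (adjusted p = 0.549) and DMSO and 0 h (adjusted p = 0.966) did not differ beyond their spread. Against DMSO it fell by 1.25 with the luteolin label (SE 0.20, 2.38-fold lower, adjusted p = 0.00336), and within the slides the values were -1.06 and -1.44.

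**Figure D1:**
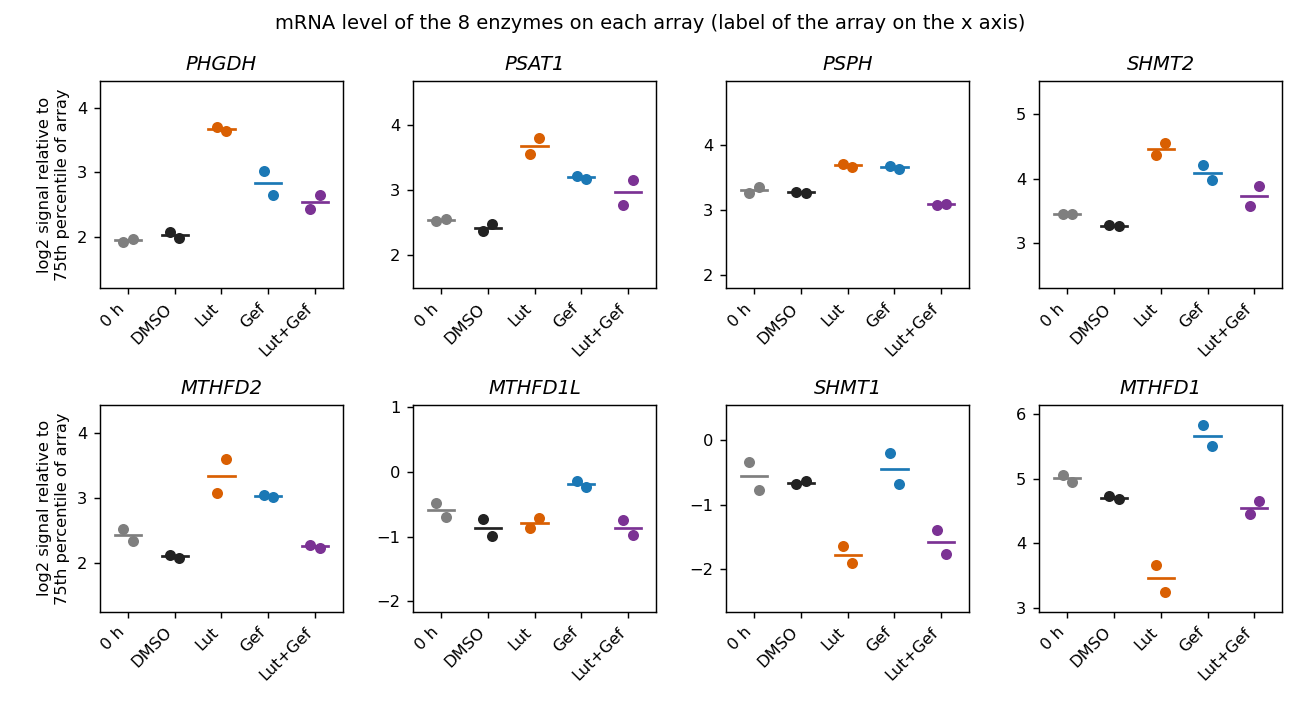
Level of each of the 8 genes on each of the 10 arrays, as scaled log2 signal (y axis), by array label (x axis), with points for arrays and bars for group means. PHGDH, PSAT1, SHMT2 and MTHFD2 were highest on the arrays labelled luteolin, MTHFD1 was lowest there (3.66 and 3.25, against 4.72 and 4.69 with DMSO), and the SHMT1 arrays labelled luteolin overlapped those labelled with both drugs.

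With the luteolin label, 6 of the 8 members were thus called against DMSO, where 13.4% of the 19718 genes tested were called. Of these, PHGDH, PSAT1, SHMT2 and MTHFD2 were 4 raised members (7.20% of all genes were raised), and SHMT1 and MTHFD1 were 2 lowered members (6.17% of all genes were lowered). The median change of all genes was 0.08, and the count was 6 with quantile normalization and 5 with normexp, where SHMT1 was at -0.94 (adjusted p = 0.00451) and under the minimum size. RNA came from whole cultures of a single line, so fewer cells carrying a transcript and less of it per cell cannot be told apart. By the file names these 6 calls belong to gefitinib, and 0 of 8 members were called with luteolin.

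**Figure D2:**
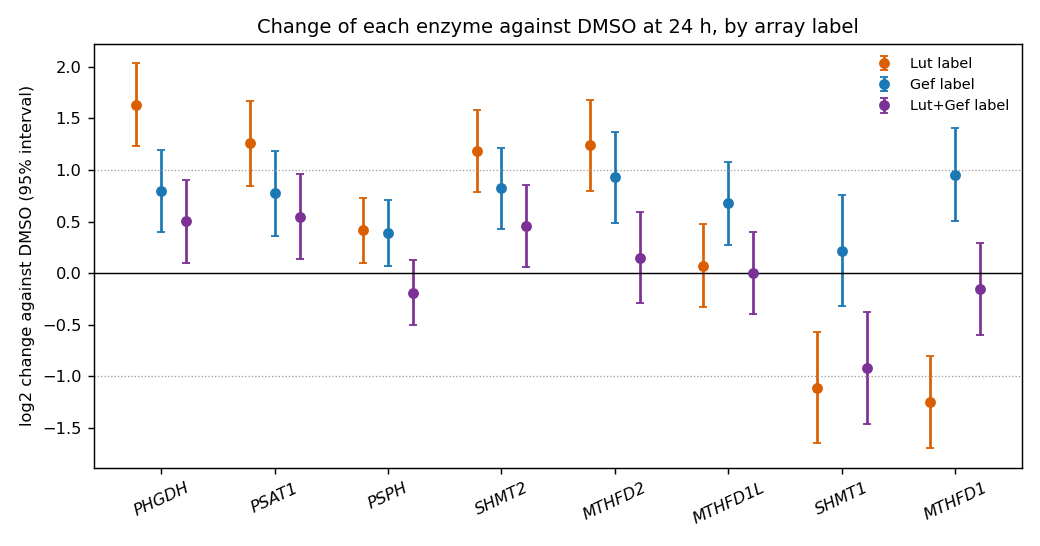
Log2 change of each gene against DMSO at 24 h (y axis) for the 3 drug labels (colours), with 95% intervals of the limma fit and dotted lines at the minimum size for a call. With the luteolin label PHGDH rose by 1.63 and MTHFD1 changed by -1.25, whereas with the gefitinib label all 8 values were above 0 and below 1.

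On the arrays labelled gefitinib the members stood together above DMSO, but by less than the minimum size. None was called (0 of 8, where 29.9% of all genes were called), while 7 of 8 had an adjusted p under 0.05 from limma, all 7 upwards, beside 55.0% of all genes and 32.9% of all genes upwards. Limma's unadjusted p was under 0.05 for 7 of 8. It was so for at least the same 55.0% of all genes, since passing the adjusted p implies passing the unadjusted one. The methods' t-test gave 0 of 8. MTHFD1 was 0.95 above DMSO (adjusted p = 0.00493), MTHFD2 0.93 (adjusted p = 0.00527), SHMT2 0.82, PHGDH 0.79, PSAT1 0.78, MTHFD1L 0.68 (adjusted p = 0.0123) and PSPH 0.39 (adjusted p = 0.043). SHMT1 was the exception, with 0.22 (adjusted p = 0.454) and replicate arrays at -0.21 and -0.68.

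Fewer members kept an adjusted p under 0.05 from limma when any 1 array labelled gefitinib or DMSO was left out. These values also depended on the scaling. The median of all genes was 0.22 with the gefitinib label and 0.05 after quantile normalization, and after that normalization 2 of 8 members kept an adjusted p under 0.05, namely PHGDH (0.45, adjusted p = 0.0387) and MTHFD1L (0.68, adjusted p = 0.0109). MTHFD1 was then 0.18, SHMT2 0.24, PSAT1 0.37 and MTHFD2 0.56, and PSPH turned to -0.13 (adjusted p = 0.457). Normexp background correction moved the median of all genes to 0.37 instead. Of all genes, 15.6% were called raised and 14.3% lowered with the gefitinib label, against 10.4% and 15.4% after quantile normalization and 13.3% and 6.77% after normexp. Without gefitinib replicate 2, MTHFD1 was called (1.12, adjusted p = 0.00943). Of the 8 members, MTHFD1L was the one whose value with the gefitinib label was the same, to the 2 decimals given, under both scalings.

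With the label of both drugs, 0 of 8 members were called against DMSO (19.8% of all genes), and 3 of 8 had an adjusted p under 0.05 from limma (41.3% of all genes). Limma's unadjusted p was under 0.05 for 4 of 8, and for at least the same 41.3% of all genes. The methods' t-test gave 0 of 8. PHGDH was 0.50 higher (adjusted p = 0.049) and PSAT1 0.55 higher (adjusted p = 0.0411), whereas SHMT1 changed by -0.92 (adjusted p = 0.0173), and by -0.98 after quantile normalization (adjusted p = 0.0124). SHMT2 was at 0.46 (adjusted p = 0.0641), and MTHFD2 (0.15), MTHFD1L (0.00), MTHFD1 (-0.15) and PSPH (-0.19) did not pass. After quantile normalization the median of all genes moved from 0.16 to 0.00, and PHGDH (0.38) and PSAT1 (0.40) no longer passed. Neither passed with normexp, with no filter on dim probes or in a fit of the compared groups alone. With a block for replicate number or for slide, 1 of 8 members passed upwards. The shares of all genes called raised and lowered were 12.1% and 7.69%, against 8.44% and 10.4% after quantile normalization and 9.37% and 3.77% after normexp. Leaving out luteolin_gefitinib replicate 1 made SHMT1 a called gene (-1.10, adjusted p = 0.017), and leaving out either DMSO array or replicate 2 of the pair raised its adjusted p to between 0.0781 and 0.0912.

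Exposure to DMSO for 24 h gave 0 of 8 called members against 0 h, at an adjusted or an unadjusted p under 0.05 from limma or by the methods' t-test, where 0.0304% of all genes were called. The differences ran from -0.33 for MTHFD2 to 0.09 for PHGDH, with MTHFD1 (-0.30), MTHFD1L (-0.27), SHMT2 (-0.18), PSAT1 (-0.12), SHMT1 (-0.10) and PSPH (-0.04) between them. Measured against 0 h in place of DMSO, 5 of 8 members were called with the luteolin label (16.1% of all genes): PHGDH at 1.72, PSAT1 at 1.14 and SHMT2 at 1.01 upwards (8.26% of all genes), and SHMT1 at -1.21 and MTHFD1 at -1.55 downwards (7.84%). MTHFD2 fell short of the minimum size there, with 0.91 (adjusted p = 0.00976), and so did PSPH (0.38) and MTHFD1L (-0.20). Without luteolin replicate 2 the count was 3, as SHMT1 (-1.08, adjusted p = 0.0592) and SHMT2 (0.92, adjusted p = 0.0395) were lost. With the gefitinib label 0 of 8 were called against 0 h (29.0% of all genes), and the methods' t-test gave 0. Limma's adjusted p was under 0.05 for 5 of 8 (54.3% of all genes). Its unadjusted p was under 0.05 for 7 of 8, and for at least the same 54.3% of all genes. The values were PHGDH (0.88), PSAT1 (0.66), PSPH (0.35), SHMT2 (0.65), MTHFD2 (0.60), MTHFD1L (0.41), SHMT1 (0.11) and MTHFD1 (0.66). Without gefitinib replicate 2, PHGDH was at 1.07 there. Fewer members kept an adjusted p under 0.05 from limma when any 1 array labelled gefitinib or 0 h was left out. After quantile normalization, 1 of 8 members kept an adjusted p under 0.05 from limma with the gefitinib label against 0 h, and 6 of 8 values were above 0. With both labels SHMT1 alone was called (-1.02, adjusted p = 0.0115, 19.8% of all genes), and it was not called without 0h replicate 1 (-0.81, adjusted p = 0.0778) or luteolin_gefitinib replicate 2 (-0.84, adjusted p = 0.0641). The other members stood at PHGDH (0.59), PSAT1 (0.43), PSPH (-0.22), SHMT2 (0.28), MTHFD2 (-0.18), MTHFD1L (-0.27) and MTHFD1 (-0.45). These comparisons share the 0 h or the DMSO arrays with each other, so their members in common are not independent.

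Set directly against each other, the arrays labelled luteolin and gefitinib differed most in the cytosolic enzymes. MTHFD1 differed by -2.20 (4.61-fold lower with the luteolin label, adjusted p = 0.000106) and SHMT1 by -1.33 (2.51-fold lower, adjusted p = 0.00188), and these were the 2 of 8 members called (36.6% of all genes). PHGDH was 0.84 higher with the luteolin label (adjusted p = 0.00403) and PSAT1 0.48 higher (adjusted p = 0.0452), and MTHFD1L differed by -0.60 (adjusted p = 0.0171), all under the minimum size. PSAT1 did not pass with normexp, no filter on dim probes, slide as a block or a fit of the compared groups alone. It also did not pass in most of the fits that left out 1 array. MTHFD1L did not pass with slide as a block, or without replicate 1 of either pair. For SHMT2 the difference was 0.36 with a 95% interval from -0.03 to 0.76, for MTHFD2 0.31 (-0.13 to 0.75) and for PSPH 0.03 (-0.29 to 0.34), none of which passed. The direct values also depended on the scaling. After quantile normalization all 8 members passed limma's adjusted p and 4 were called. Without that normalization 60.4% of all genes passed and 36.6% were called, and the shares after it are not given. The called members were PHGDH at 1.30, SHMT2 at 1.04, SHMT1 at -1.39 and MTHFD1 at -1.47. PSPH was then at 0.58 (adjusted p = 0.00719) and MTHFD2 at 0.75 (adjusted p = 0.0142).

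When the arrays with the label of both drugs were set against those with the luteolin label, PHGDH differed by -1.13 (adjusted p = 0.00226) and MTHFD2 by -1.09 (adjusted p = 0.00387), while MTHFD1 was 1.10 higher (adjusted p = 0.0039), and these were the 3 of 8 members called (21.0% of all genes). SHMT2 (-0.73, adjusted p = 0.012), PSAT1 (-0.71, adjusted p = 0.0153) and PSPH (-0.60, adjusted p = 0.0107) passed the adjusted p under the minimum size, whereas MTHFD1L (-0.07) and SHMT1 (0.19) did not pass. Without luteolin replicate 2, PHGDH was the 1 member called. Against the pair labelled gefitinib, SHMT1 (-1.14, adjusted p = 0.00506) and MTHFD1 (-1.11, adjusted p = 0.00237) were the 2 of 8 members called (27.0% of all genes), and all 8 differences were below 0. MTHFD2 (-0.78), MTHFD1L (-0.67) and PSPH (-0.58) passed the adjusted p alone, and SHMT2 (-0.36), PHGDH (-0.29) and PSAT1 (-0.23) did not. That count was 0 without gefitinib replicate 1, and MTHFD1 alone without luteolin_gefitinib replicate 2.

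A test of the interaction asked whether the change with both labels departed from the sum of the changes with each label, on the log2 scale. It was below 0 with an adjusted p under 0.05 for 6 of 8 members, where 34.2% of all genes passed and 16.3% passed below 0. The value was -2.01 ± 0.27 for MTHFD2 (adjusted p = 0.00131), -1.92 ± 0.25 for PHGDH (adjusted p = 0.00105), -1.55 ± 0.24 for SHMT2, -1.49 ± 0.25 for PSAT1, -0.99 ± 0.20 for PSPH and -0.75 ± 0.25 for MTHFD1L (adjusted p = 0.0473). The MTHFD1L value was lost, and the count was 5, with normexp, with no filter on dim probes, with slide as a block, in a fit of the compared groups alone and on leaving out any 1 array but luteolin_gefitinib replicate 1. For SHMT1 (-0.03, 95% interval -0.79 to 0.74) and MTHFD1 (0.14, -0.49 to 0.77) no departure was detected with 2 arrays a group. This result turns on the labels, since by the file names the interaction was 2.24 for SHMT1 (adjusted p = 0.00118) and 2.36 for MTHFD1, and PSPH (0.16) and MTHFD1L (0.60) changed sign and no longer passed.

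The 4 genes with more than 1 probe allowed a check inside the gene. The second SHMT2 probe (chr12:55914104-55914286 on hg18) rose by 1.24 with the luteolin label, and the second SHMT1 probe (chr17:18177238-18177297) changed by -1.14, both called and both near the value of the representative probe. Another SHMT1 probe (chr17:18192488-18192546) was well above background on 5 of 10 arrays and is not read further. For PSPH, the probe at chr7:56046293-56046352 overlaps the representative probe and gave 0.33, 0.55 and -0.11 with the luteolin, gefitinib and joint labels. A PSPH probe further 5′ in the gene (chr7:56046527-56046586) gave 0.55, 1.49 and 0.82, and its value with the gefitinib label was called (adjusted p = 0.00157).

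MTHFD1L had 4 probes along the gene, which did not give a single value. From 5′ to 3′ they lay at chr6:151248551-151250717, 151261768-151261827, 151397417-151399840 and 151455333-151455392 on hg18. With the gefitinib label they read 0.85, 1.11, 0.61 and 0.68 in that order, of which the second was called (adjusted p = 0.00206). With the label of both drugs the 2 probes nearer the 5′ end were below DMSO, by -0.59 each (adjusted p = 0.02 and 0.0324), while the other 2 read -0.04 and 0.00. The second probe was designed on another transcript record than the other 3. The difference between probes of a gene was not tested.

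**Figure D3:**
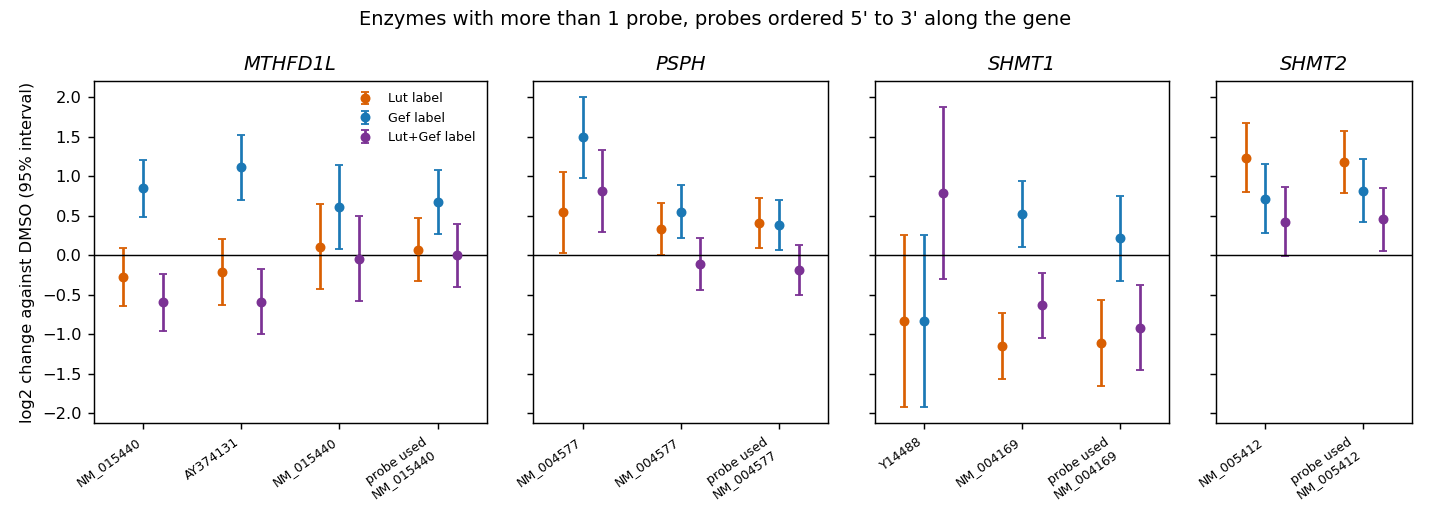
Log2 change against DMSO (y axis) of every tested probe of MTHFD1L, PSPH, SHMT1 and SHMT2, ordered 5′ to 3′ along each gene (x axis, named by transcript record), with 95% intervals of the limma fit. The 2 MTHFD1L probes nearest the 5′ end lay at -0.59 with the label of both drugs and the others near 0, and the PSPH probe furthest 5′ was at 1.49 with the gefitinib label.

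The wider pathway was described with 6 further lists, each by its counts against DMSO beside the background above. ATF4 and its amino acid response targets rose with the luteolin label, 11 of 12 genes called and 0 lowered, with a median change of 2.09 beside 0.08 for all genes. NUPR1 rose by 3.37, TRIB3, a pseudokinase that restrains ATF4, by 3.11, DDIT3, the stress factor CHOP, by 2.86, and ATF4 itself by 1.92 (adjusted p = 0.00368). VLDLR, at 1.01, was the 1 gene not called, and leaving out single arrays gave between 8 and 12 raised genes. With the label of both drugs 6 of 12 rose and 0 fell (median 1.36), ATF3 by 2.60, DDIT4 by 2.06, STC2 by 1.65 and ATF4 by 1.48 (adjusted p = 0.00816). With the gefitinib label 3 rose and 2 fell (median 0.46, and -0.10 after quantile normalization). ATF3 rose by 3.14, DDIT4 by 1.44 and NUPR1 by 1.33, STC2 changed by -1.27, VLDLR, not well above background there, was at least 1.39-fold lower, and ATF4 was at 0.61 (adjusted p = 0.126). The 2 falls were 0 without DMSO replicate 2 or without gefitinib replicate 2, and 1 without DMSO replicate 1.

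ATF4 gave 4.67 and 4.87 at 0 h, 4.79 and 4.72 with DMSO, 6.51 and 6.84 with the luteolin label, 5.71 and 5.02 with the gefitinib label, and 5.83 and 6.63 with the label of both. All drug-treated arrays were above the controls, and the pairs labelled luteolin and luteolin plus gefitinib overlapped.

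Purine synthesis, which uses formyl groups from cytosolic folate, stood lower with the luteolin label. PFAS (-1.66), PRPS1 (-1.65) and PAICS (-1.63) were the 3 of 11 genes called, 0 were raised, and 10 of 11 had an adjusted p under 0.05 downwards (11.8% of all genes), with a median of -0.82. With the label of both drugs 4 of 11 were called, all lowered, with ADSL at -1.88, GMPS at -1.76, PFAS at -1.23 and PRPS1 at -1.10 (median -0.71). With the gefitinib label limma called 0 of 11, and 5 of 11 had an adjusted p under 0.05, 4 up and 1 down.

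Among 11 other cytosolic folate enzymes and folate carriers, TYMS, which makes thymidylate, was lowered with the luteolin label and raised with the gefitinib label. Its levels were 5.36 and 5.35 at 0 h, 5.19 and 5.23 with DMSO, 2.91 and 3.03 with the luteolin label, 6.39 and 6.33 with the gefitinib label, and 5.29 and 5.73 with the label of both. It changed by -2.24 with the luteolin label (adjusted p = 0.000402) and rose by 1.15 with the gefitinib label (adjusted p = 0.00169). The folate carrier SLC19A1 also fell with the luteolin label (-1.07), where 1 of the 11 genes was raised and 3 were lowered. The counts were 2 raised and 1 lowered with the gefitinib label (ALDH1L1 at least 2.24-fold higher, SLC46A1 at -1.06) and 1 raised and 2 lowered with both (ALDH1L1 at least 1.30-fold higher, with replicate 1 the only array of the pair above background and no fold without it, SLC19A1 at -1.12, MTHFS at -1.06).

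Of the methionine cycle and transsulfuration, 10 of 13 genes were tested. CBS, which joins serine to homocysteine, rose by 2.90 (adjusted p = 0.000219) and CTH, the next enzyme, by 1.79 (adjusted p = 0.0038) with the luteolin label, 2 raised and 0 lowered. With both labels CTH rose by 1.80, GNMT was at least 4.01-fold higher (at least 1.78-fold without luteolin_gefitinib replicate 1 and 9.05-fold without replicate 2) and MTR fell by 1.26, and with the gefitinib label 0 were called by limma, with 2 passing the adjusted p alone. The 6 other mitochondrial folate genes had 1 raised with the luteolin label (DMGDH, at least 2.82-fold higher), 1 lowered with the gefitinib label (the mitochondrial folate carrier SLC25A32, -1.23) and 2 raised with both (MTHFD2L, a relative of MTHFD2, by 1.25, and DMGDH, well above background on 1 array of that pair and given no fold). Serine use and glycine cleavage, 10 of 12 tested, held AMT raised by 1.23 and SDSL lowered (-1.09) with the luteolin label, SRR lowered (-1.02) with the gefitinib label, and SPTLC3 (-2.38), SDSL (-1.60) and GLDC (-1.40) lowered with both. Not tested, for lack of a probe kept, were AGXT, GATM, BHMT, BHMT2 and MAT1A.

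**Figure D4:**
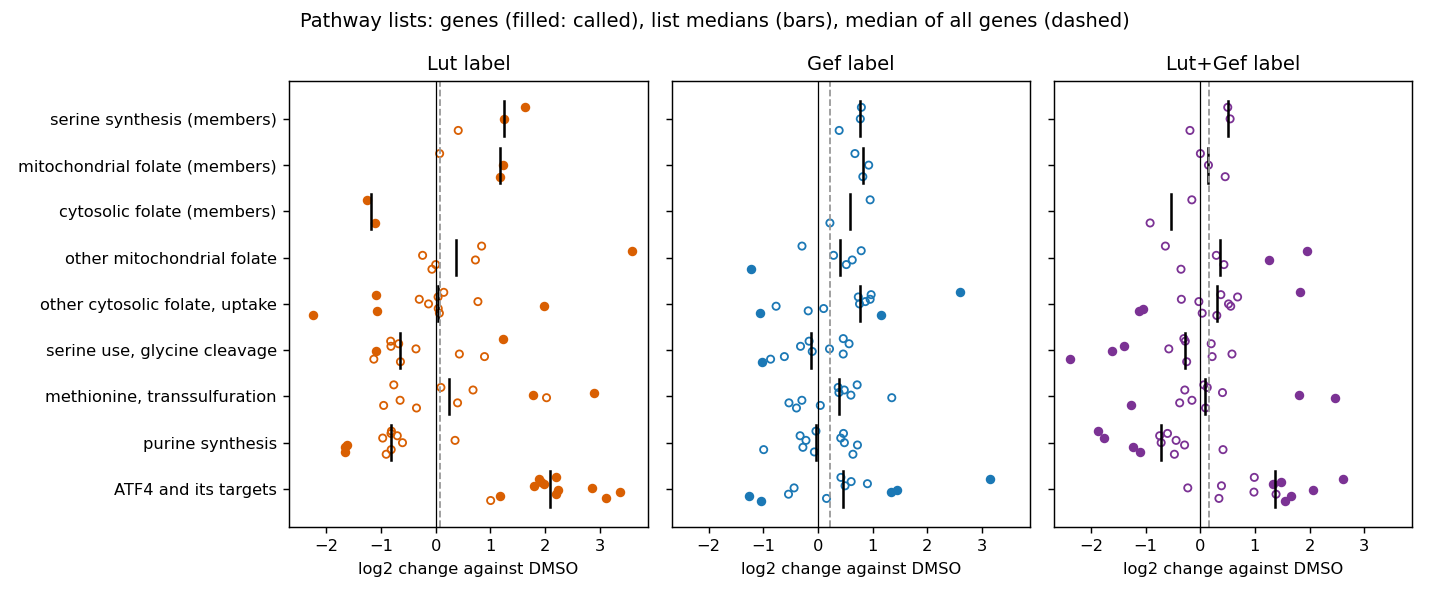
Log2 change against DMSO (x axis) of each tested gene of the members and of 6 further lists (rows) for the 3 drug labels (panels), with filled points for called genes, bars for list medians and a dashed line for the median of all genes. The ATF4 list lay to the right with the luteolin label (median 2.09) and purine synthesis to the left (median -0.82). Points of DMGDH, ALDH1L1, GNMT and, with the gefitinib label, VLDLR are fitted values that rest on a group not well above background. The same holds for ALDH1L2 with the gefitinib label and with both labels. At most a lower limit of the fold was measured for such points. None was measured for DMGDH with both labels, or where neither group lay well above background.

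For each member whose group means spanned at least 1 on the log2 scale, the 3 genes with the most similar levels over the 10 arrays were listed, as a description with no test, since the arrays of a group share their treatment. They were CDK2AP2 (Pearson r = 0.986), FAM3C and DXO for PHGDH, OSTC (0.992), ANKRD29 and PLA1A for PSAT1, HYOU1 (0.990), PSAT1 (0.984) and P4HA3 for SHMT2, LOC285216 (0.984), C1orf54 and ME1 for MTHFD2, FANCG (0.972), SNRPA1 and an unnamed transcript for SHMT1, and POLA1 (0.993), DHRS11 and DOCK5 for MTHFD1. POLA1 encodes the catalytic subunit of DNA polymerase alpha and HYOU1 a chaperone of the endoplasmic reticulum. PSPH and MTHFD1L spanned less than 1.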

How the data were processed

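RNA of PC-3 cells was measured on 10 single-colour oligonucleotide arrays. As deposited by the authors, the scanner files hold processed intensities on a linear scale, written by Agilent Feature Extraction (10.7.3.1 in the headers, where the methods give another version), corrected on each array for background and spatial trend, with surrogates in place of low values and without normalization between arrays. The deposited series table of intensities equals them for all 45015 spots (relative tolerance 1e-04), and 0 columns were left unused. The number of arrays limits the precision.

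Outlier and control spots were left out, and log2 values were set relative to the 75th percentile of each array and averaged per probe. Probes were kept when both arrays of some group lay well above background (28776 of 41000, for 19718 genes). Of all 41000 probes, kept or not, 23958 matched RefSeq. A gene was represented by its brightest probe. Limma 3.58.1 (R 4.3.3) was fitted to the 5 groups, with 5 residual and 3.35 prior degrees of freedom and Benjamini-Hochberg adjustment over all kept probes, and tested on simulated data. The 8 members are named in every comparison, and of each list the 3 called genes with the largest rise and fall per comparison, and ATF4, except some genes that are not reported here. For a group not well above background, the fold is a lower limit against the dimmest probes that were. The members, lists and motifs were chosen with earlier results of these data known. Slides held several groups, so values within slides were computed.

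Alternatives were normexp background correction (offset 50), quantile normalization, no filter on dim probes, a filter asking for signal on every array, the series table, a block for replicate number or for slide, a fit of the compared groups alone, the drug names of the files, a call without a minimum fold, medians over probes, the methods' 1-sample t-test, and leaving out each array. For the wider lists, normexp, quantile normalization and leaving out arrays were added after seeing the data.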

Additional observations from a re-analysis of the deposited data

Results flagged for a closer look

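The change with both labels departed from the sum of the changes with the single labels for 6 of the 8 members, by limma's test of the interaction on the log2 scale. The departure was -1.92 for PHGDH (adjusted p = 0.00105), -1.49 for PSAT1 (adjusted p = 0.0034), -0.99 for PSPH (adjusted p = 0.00637), -1.55 for SHMT2 (adjusted p = 0.00243), -2.01 for MTHFD2 (adjusted p = 0.00131) and -0.75 for MTHFD1L (adjusted p = 0.0473). For MTHFD2 the pair labelled with both drugs was 0.15 above DMSO, and the pairs labelled with 1 drug were 1.24 and 0.93 above it. The MTHFD1L value above, that of the representative probe, did not pass in most alternatives. It failed with normexp (-0.61, adjusted p = 0.0595), no filter on dim probes (adjusted p = 0.0901), slide as a block (-0.68, adjusted p = 0.0996), a fit of the compared groups alone (adjusted p = 0.0639) and on leaving out any 1 array but luteolin_gefitinib replicate 1, with an adjusted p of up to 0.181 without DMSO replicate 2. The 2 MTHFD1L probes nearest the 5′ end had mean levels of -1.32 and -0.78 with DMSO and of -1.60 and -0.99 with the luteolin label. With the gefitinib label they were at -0.47 and 0.33, and with both labels at -1.92 and -1.37. The departure at these probes is not given. By the file names the departure was -1.34 for PHGDH, -1.03 for PSAT1, -0.82 for SHMT2 and -0.46 for MTHFD2 (adjusted p = 0.21), and above 0 for PSPH (0.16) and MTHFD1L (0.60). Its cause was not tested.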

How the results depend on the processing

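Of the values of single members under the alternatives, 1677 stayed on the same side of the threshold. A further 48 kept the direction but were no longer called, 19 became called, and 16 reversed sign and were called before or after. Some of the 1677 were not called in either fit and changed sign, such as PSPH with the gefitinib label against DMSO (0.39, and -0.13 after quantile normalization). The causes were not tested.

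By the treatments of the file names, the called members numbered 0 for luteolin and 6 for gefitinib against DMSO, and 1 for luteolin, 5 for gefitinib and 0 for both against 0 h. The values counted as reversed all belong to that setting. For gefitinib against DMSO they were -1.11 for SHMT1 and -1.25 for MTHFD1, and against 0 h -1.21 and -1.55. SHMT1 was at 0.11 for both drugs against 0 h. Luteolin against gefitinib gave -1.13 for PHGDH, 0.19 for SHMT1, 1.10 for MTHFD1 and -1.09 for MTHFD2, both drugs against luteolin 0.29 for PHGDH and 0.78 for MTHFD2, and both drugs against gefitinib 1.33 for SHMT1 and 2.20 for MTHFD1. The interaction was 0.16 for PSPH, 2.24 for SHMT1 and 0.60 for MTHFD1L.

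With normexp the called members numbered 5 for luteolin against DMSO (SHMT1 lost), 5 in the interaction (MTHFD1L lost), 3 for luteolin against 0 h, 0 for both drugs against 0 h and 1 for both against gefitinib. With quantile normalization they numbered 4 for luteolin against gefitinib and 1 for both drugs against gefitinib. For comparisons other than those against DMSO, the shares of all genes under these scalings are not given. With no minimum fold there were 7 for gefitinib (55% of all genes) and 3 for both drugs (41.3%) against DMSO. Against 0 h there were 5 for gefitinib (54.3%) and 2 for both (40.7%). The direct comparisons gave 5 for luteolin against gefitinib (60.4%), 6 for both against luteolin (41.8%) and 5 for both against gefitinib (47.3%). Medians over probes gave 0 for both drugs against 0 h. At an unadjusted threshold the methods' t-test gave 2 for luteolin against DMSO (PHGDH and SHMT2) and 1 for luteolin against 0 h (PHGDH). It gave 0 for both drugs against 0 h, and 0 in each after Benjamini-Hochberg adjustment. Limma gave an unadjusted p under 0.05 for 7, 7 and 4 of 8 members in that order. At least 26%, 30.4% and 40.7% of all genes did so, the shares that passed limma's adjusted p.

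Leaving out 1 array at a time, the counts ran from 4 to 6 for luteolin, 0 to 1 for gefitinib and 0 to 1 for both drugs against DMSO, from 3 to 6, 0 to 1 and 0 to 1 in the same order against 0 h, from 0 to 0 for DMSO against 0 h, from 2 to 3 for luteolin against gefitinib, from 1 to 3 for both against luteolin, from 0 to 2 for both against gefitinib and from 5 to 6 for the interaction. The lone array left is assumed to vary like the other groups. Arrays with the same replicate number correlated between -0.09 and 0.29 in their deviations from the group means, over 0.1 for 6 of 10 pairs of groups, fewer than all pairs, and nothing in the labels says what the number marks, so they were not treated as paired. With the replicate number as a block, the called members numbered 6 for luteolin, 0 for gefitinib and 0 for both drugs against DMSO, and the counts of the other comparisons were also those without the block. Dim probes, such as the dim SHMT1 probe, are limited by signal over background.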
